A study of Bos taurus with 12 samples.

Results

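The 9 genes described here encode enzymes of glycolysis: GPI, ALDOA, ALDOC, TPI1, PGK1, ENO1, PKM, LDHA and LDHB. They were taken by name, as every probe set of the array annotated to exactly 1 of these symbols, which gave 11 probe sets: 1 for each of 8 genes and 3 for LDHA. The array annotation names 9155 genes in this way, of which these are 9. They were measured in cattle conceptuses of gestation day 16, an age at which the trophoblast has drawn out into a long filament that is not yet attached to the uterus. Each of the 4 groups had 3 Affymetrix bovine arrays. SCNT conceptuses came from somatic cell nuclear transfer, in which a body cell's nucleus replaces that of the oocyte. IVP conceptuses came from embryos produced in vitro, and AI conceptuses from embryos produced in vivo by artificial insemination. All these embryos had been transferred as blastocysts to synchronized cows on day 7, and filaments of comparable length were collected, with RNA taken from 10 mg samples. FB are the cultured fibroblasts that donated the nuclei, although their label gives the tissue as elongated embryo. Nothing in the labels tells whether replicate arrays are separate animals, pools or repeats of 1 RNA, so the p-values below rest on a spread that may be technical.

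Glycolysis splits glucose into pyruvate in the cytosol, yielding ATP and NADH. Lactate dehydrogenase then interconverts pyruvate and lactate and regenerates NAD+, and the pathway's intermediates also feed the pentose phosphate pathway, glycogen and glycerol phosphate. Several steps have isoforms encoded by separate genes: ALDOA is the aldolase of muscle and most growing tissues and ALDOC that of brain, while LDHA and LDHB encode the M and H subunits, which mix in the tetramers of lactate dehydrogenase. The elongating ruminant conceptus is known to take up glucose from the uterine fluid.

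The values are log2 signals, on which 1 unit is a doubling. On each array 6359 to 6643 of the 24016 probe sets exceeded log2 4. All 11 glycolytic probe sets passed the filter on low values, log2 4 on at least 3 arrays, both among the 9 conceptus arrays and among all 12. Pearson's r across probe sets was 0.942 to 0.951 between SCNT and AI arrays, 0.974 to 0.985 between SCNT and IVP arrays, and 0.512 to 0.539 between conceptus and fibroblast arrays. Of 10 fibroblast markers, 1 (THY1) lay above log2 4 on every array of each conceptus group, against 9 on every FB array, and 3 of the 5 trophoblast markers on the array did so in each conceptus group, against 0 in FB, which goes against the tissue label of FB. In the conceptuses, the summed trophoblast markers (KRT18 the brightest, with KRT8 and ELF5 below log2 4) were at log2 13.0 to 13.2 in SCNT, 12.9 to 13.2 in IVP and 12.1 to 12.5 in AI. HAND1, in the same list, went the other way without overlap, at 5.90 to 6.93 in SCNT, 5.45 to 7.03 in IVP and 8.0 to 8.33 in AI. The summed leukocyte markers (6 of 7 on the array) were at log2 5.57 to 6.83 in SCNT and 5.63 to 7.10 in IVP, against 9.39 to 10.1 in AI, where 3 of them (ITGB2, RAC2 and CD48) were above log2 4 on every array and PTPRC was at the floor of the scale. The erythroid markers (5 of 6 on the array) were at 4.75 to 4.81 in SCNT, 4.77 to 4.82 in IVP and 6.49 to 7.98 in AI, through ALAS2 alone, with the globins below log2 4. The summed hypoblast and yolk sac markers (6 of 7 on the array) overlapped between SCNT (11.6 to 11.9) and AI (11.9 to 12.3), as did GATA6. RBP4, in the same list, was at 5.05 to 6.03 in SCNT, 6.15 to 6.67 in IVP and 6.97 to 7.32 in AI. The epiblast and endometrial markers on the array were below log2 4 throughout. The part of these markers in the differences between AI and the other conceptuses was not tested, and fewer cells of a type and less RNA per cell cannot be told apart in such samples.

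**Figure D1:**
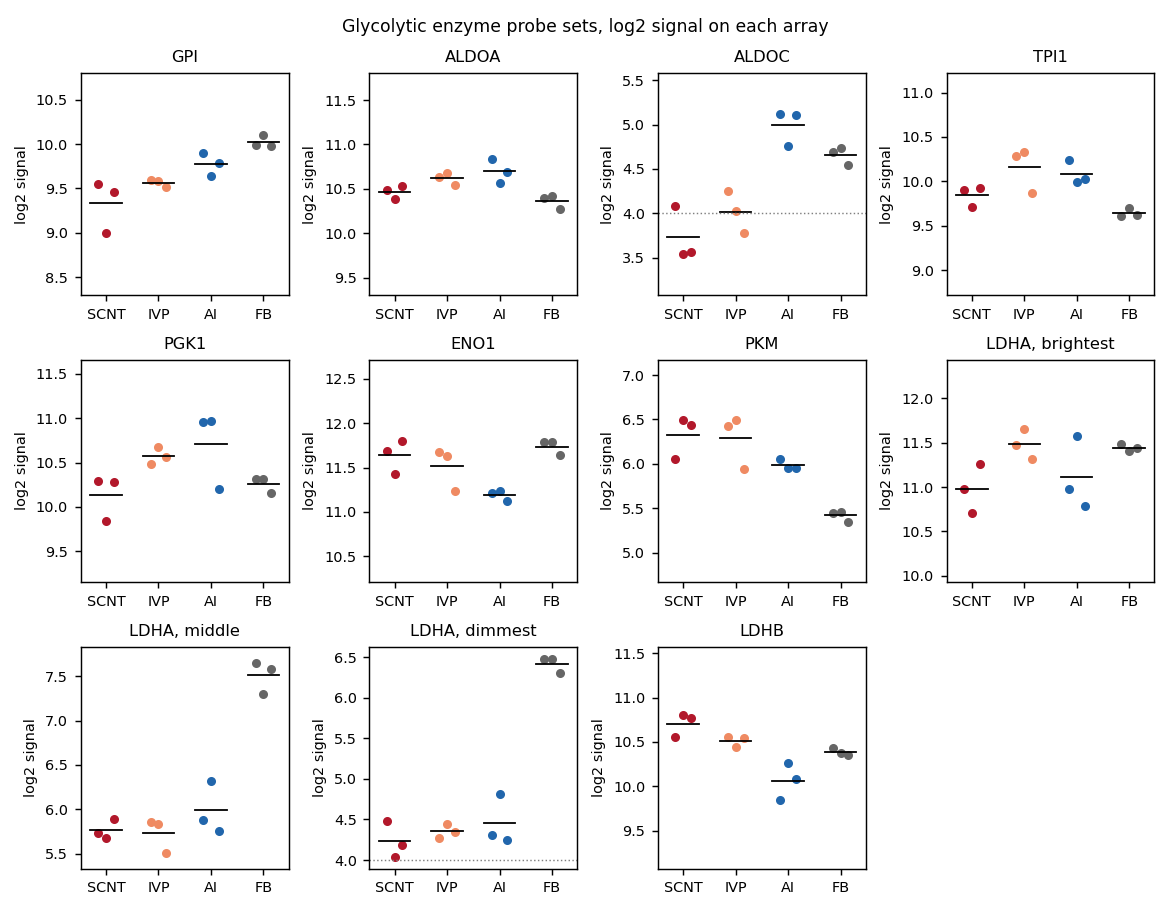
Each panel plots the log2 signal (vertical axis) of 1 probe set on the 3 arrays of SCNT, IVP, AI and FB; points are arrays, horizontal lines are group means, and the dotted line is log2 4. ALDOC was at 3.54 to 4.25 on the SCNT and IVP arrays and at 4.55 to 5.12 on the AI and FB arrays, while LDHB was lowest on the AI arrays (9.84 to 10.26).

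GPI, ALDOA, TPI1, PGK1, ENO1, LDHB and the brightest LDHA probe set gave high signals in every group, at the 97.9th percentile of the probe sets or above on all 12 arrays. ALDOC lay between the 68.4th and the 82.0th percentile and PKM between the 83.7th and the 90.8th. These ranks place a probe set on its array and do not compare the genes' transcripts, since probe sets have no common scale.

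Between SCNT and AI conceptuses, the aldolase isoform ALDOC fell and the lactate dehydrogenase subunit LDHB rose in SCNT, while the other 9 probe sets did not pass the test. The 2 called probe sets of 11 stand beside 27.6% called among all 6892 tested (limma, with a threshold of 0.05 on the adjusted p). By direction, 16.2% were higher in SCNT and 11.4% lower. SCNT and AI arrays were fully separated for 7 of 11, against 44.3% of all probe sets. The median difference of the 11 was -0.22, beside 0.08 over all probe sets tested. The groups also differed in the trophoblast, leukocyte and erythroid markers and in RBP4, as given above. Quantile normalization gave 2 higher and 1 lower, and median centring 1 higher and 2 lower.

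GPI, which interconverts glucose 6-phosphate and fructose 6-phosphate, was at 9.55, 9.0 and 9.46 on the SCNT arrays, 9.59, 9.59 and 9.52 on the IVP arrays, and 9.90, 9.64 and 9.79 on the AI arrays. All AI arrays were above all SCNT and IVP arrays, by a narrow gap to the highest IVP value. The SCNT-minus-AI difference of -0.44 (95% interval -0.79 to -0.09) missed the threshold (limma, adjusted p = 0.0618). It was called without SCNT 1 (-0.55, adjusted p = 0.0429), with median centring, with limma's trend and robust options and in the fit of all 12 arrays (adjusted p from 0.0292 to 0.0484). IVP minus AI was -0.21 (-0.56 to 0.14, adjusted p = 0.386).

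ALDOA, the aldolase that splits fructose 1,6-bisphosphate in most tissues, was at 10.48, 10.39 and 10.53 in SCNT, 10.63, 10.68 and 10.55 in IVP, and 10.83, 10.56 and 10.69 in AI. SCNT arrays lay just below all IVP and AI arrays, and IVP and AI arrays overlapped. SCNT minus AI was -0.23 (-0.50 to 0.04, limma adjusted p = 0.184) and IVP minus AI -0.08 (-0.34 to 0.19, adjusted p = 0.704).

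ALDOC, the isoform known from brain, was at 4.09, 3.54 and 3.56 on the SCNT arrays, 4.25, 4.02 and 3.78 on the IVP arrays, and 5.12, 4.75 and 5.11 on the AI arrays. Every AI array exceeded every SCNT and IVP array, while SCNT and IVP overlapped, with 3 of their 6 arrays (SCNT 2, SCNT 3 and IVP 3) below log2 4. ALDOC averaged 3.73 ± 0.31 in SCNT and 4.99 ± 0.21 in AI (SD, n = 3 each), a difference of -1.27 (-1.68 to -0.85, limma adjusted p = 0.00116), and with SCNT values below log2 4 set to 4 it was at least 1.95-fold lower in SCNT. In IVP it averaged 4.02 ± 0.23 (SD, n = 3), 1.97-fold lower than in AI (1.47 to 2.63, limma adjusted p = 0.00634). The IVP fold is without the floor, so it is not comparable with the SCNT bound. Without the floor the differences from AI were -1.27 in SCNT and -0.98 in IVP. With any single array left out, the difference ran from -1.44 to -1.17 for SCNT and from -1.10 to -0.86 for IVP, and the call held each time. It ended for IVP with no filter on low values (adjusted p = 0.0721).

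TPI1, which interconverts the triose phosphates made by aldolase, was at 9.90, 9.70 and 9.93 in SCNT, 10.28, 10.33 and 9.87 in IVP, and 10.24, 9.99 and 10.02 in AI. SCNT arrays lay below AI arrays, and IVP spanned both. SCNT minus AI was -0.24 (-0.57 to 0.10, limma adjusted p = 0.277) and IVP minus AI 0.08 (-0.26 to 0.42, adjusted p = 0.752).

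PGK1, the kinase of the ATP-forming step from 1,3-bisphosphoglycerate, was at 10.29, 9.84 and 10.27 in SCNT, 10.49, 10.67 and 10.56 in IVP, and 10.95, 10.97 and 10.20 in AI. AI 3 lay with the SCNT arrays, well below AI 1 and AI 2. SCNT minus AI was -0.57 (-1.04 to -0.10, limma adjusted p = 0.0683), and it was called without AI 3 (-0.83, adjusted p = 0.010) and in the fit of all 12 arrays (adjusted p = 0.0425). PGK1 lies on the X chromosome, and XIST, the RNA of the inactive X, looked at after these values were seen, was at log2 2.42 on each SCNT array and at 4.0, 2.42 and 6.55 on the IVP arrays, whose PGK1 values all lay between 10.49 and 10.67. On AI 1, AI 2 and AI 3 it was at 4.79, 4.88 and 2.57, so that the AI array low in PGK1 was also low in XIST. XIST was also at 2.42 on each FB array. In SCNT and FB, XIST status thus cannot be told apart from the group, and its part in the PGK1 values was not tested.

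ENO1, the enolase that makes phosphoenolpyruvate, was at 11.68, 11.43 and 11.80 in SCNT, 11.68, 11.64 and 11.24 in IVP, and 11.21, 11.23 and 11.12 in AI. Every SCNT and IVP array was above every AI array, with IVP 3 only just so. SCNT minus AI was 0.45 (0.11 to 0.79), and narrowly missed the threshold (limma, adjusted p = 0.0515). ENO1 passed it in 5 alternative settings and without SCNT 2 (adjusted p from 0.0236 to 0.0493). IVP minus AI was 0.33 (-0.01 to 0.67, adjusted p = 0.164).

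PKM, the pyruvate kinase of the last ATP-forming step, was at 6.06, 6.49 and 6.44 in SCNT, 6.43, 6.49 and 5.94 in IVP, and 6.05, 5.95 and 5.96 in AI. Within SCNT and IVP, 1 array each (SCNT 1 and IVP 3) lay at the level of AI. The differences from AI were 0.34 in SCNT (-0.04 to 0.73, limma adjusted p = 0.167) and 0.30 in IVP (-0.08 to 0.69, adjusted p = 0.252). This probe set reads PKM as a gene and was not matched to its splice forms.

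LDHB, the H subunit of lactate dehydrogenase, was at 10.56, 10.80 and 10.76 on the SCNT arrays, 10.55, 10.45 and 10.54 on the IVP arrays, and 9.84, 10.26 and 10.08 on the AI arrays. The groups were ordered SCNT above IVP above AI without overlap, though SCNT 1 and IVP 1 nearly met. LDHB averaged 10.71 ± 0.13 in SCNT and 10.06 ± 0.21 in AI (SD, n = 3 each), 1.57-fold higher in SCNT (95% interval 1.27 to 1.94, limma adjusted p = 0.00694). With any 1 array left out the difference was 0.54 to 0.75, and the call held. In IVP it averaged 10.51 ± 0.06 (SD, n = 3), 1.37-fold higher than in AI (1.11 to 1.70, limma adjusted p = 0.0464). That call ended without IVP 1, IVP 2, IVP 3, AI 1 or AI 3, with a difference of 0.34 to 0.49 and an adjusted p from 0.0732 to 0.155.

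LDHA, the M subunit, has 3 probe sets on the array, and none was called between conceptus groups. The brightest was at 10.98, 10.70 and 11.26 in SCNT, 11.47, 11.66 and 11.32 in IVP, and 10.98, 11.58 and 10.78 in AI. IVP arrays lay above SCNT arrays, and AI spanned both, with AI 2 well above AI 1 and AI 3. SCNT minus AI was -0.13 (-0.61 to 0.34, limma adjusted p = 0.690) and IVP minus AI 0.37 (-0.10 to 0.85, adjusted p = 0.256). Without AI 2 the sign of SCNT minus AI turned (0.10, adjusted p = 0.722), and without SCNT 2 it was 0.01. The middle probe set (5.51 to 6.32 over the conceptus arrays) and the dimmest (4.04 to 4.82) had differences between -0.26 and 0.03 in the comparisons among conceptuses. The 3 probe sets correlated at 0.45 to 0.67 over the 9 conceptus arrays, as a description of 9 arrays that fall into 3 groups.

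Between IVP and AI, 2 of 11 probe sets passed, LDHB higher and ALDOC lower, beside 17.9% of all probe sets (8.42% higher and 9.49% lower in IVP). Arrays did not overlap for 4 of 11, against 37.4% of all. The comparisons of SCNT and IVP with AI share the AI arrays.

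Between SCNT and IVP, 0 of 11 probe sets passed (limma), beside 0.580% of all, and 1 had an unadjusted p under 0.05. That 1 was the brightest LDHA probe set, at -0.50 (-0.98 to -0.03, adjusted p = 0.362). Arrays did not overlap for 4 of 11 (ALDOA, PGK1, LDHB and the brightest LDHA probe set), against 19.7% of all probe sets. The intervals of ALDOC, LDHB and PGK1 included 0 but were wide: ALDOC was -0.29 (-0.71 to 0.13, adjusted p = 0.561), LDHB 0.19 (-0.11 to 0.50, adjusted p = 0.605) and PGK1 -0.44 (-0.91 to 0.03, adjusted p = 0.425).

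**Figure D2:**
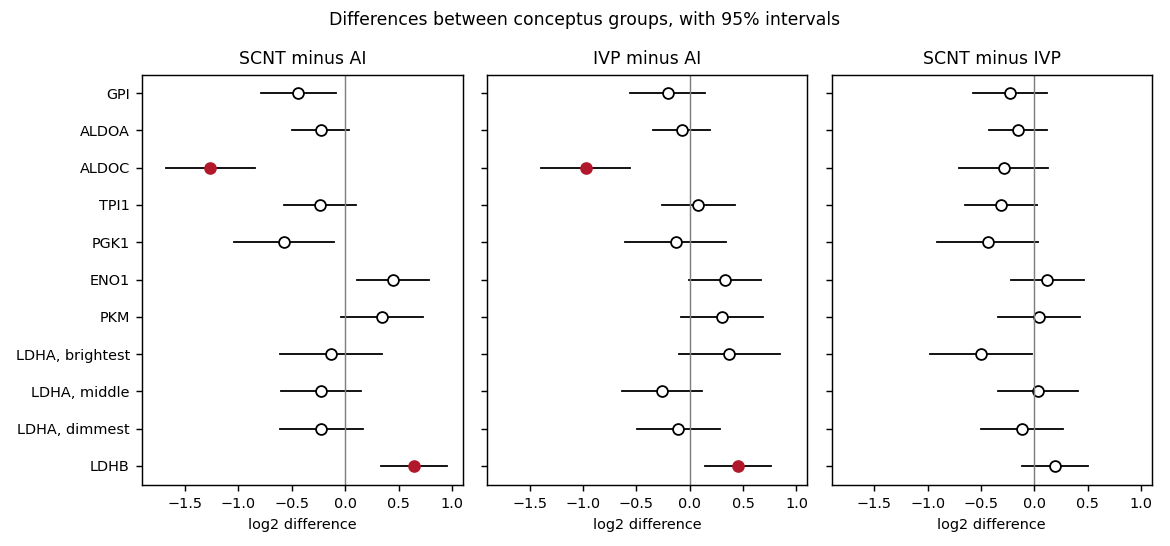
Log2 differences (horizontal axis) of the 11 glycolytic probe sets for SCNT minus AI, IVP minus AI and SCNT minus IVP, with 95% intervals; filled points passed the test at an adjusted p under 0.05 and open points did not. ALDOC (-1.27 and -0.98) and LDHB (0.65 and 0.45) are the filled points against AI, and SCNT minus IVP has none.

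The isoform balance was taken as the difference of log2 signals between the brightest probe sets of both isoforms on the same array, with values below log2 4 set to 4. As probe sets have no common scale, only the difference of a balance between groups is read. For aldolase, ALDOA minus ALDOC was 6.40, 6.39 and 6.53 on the SCNT arrays, 6.38, 6.66 and 6.55 on the IVP arrays, 5.71, 5.81 and 5.58 on the AI arrays, and 5.70, 5.68 and 5.73 on the FB arrays. SCNT and IVP arrays were all above AI and FB arrays, and AI overlapped FB. The balance averaged 6.44 ± 0.08 in SCNT, 6.53 ± 0.14 in IVP, 5.70 ± 0.11 in AI and 5.70 ± 0.03 in FB (SD, n = 3 each). It was thus higher by 0.74 in SCNT and by 0.83 in IVP relative to AI, and by 0.74 and 0.83 relative to FB, while AI minus FB was -0.00. ALDOA itself was not higher than in AI (-0.23 in SCNT and -0.08 in IVP), so the higher balance relative to AI came from lower ALDOC. In AI, ALDOA (0.33) and ALDOC (0.34) both averaged above FB, which leaves the balance unchanged. Each of the 4 balance differences of SCNT and IVP from AI or FB had an exact permutation p of 0.1, the smallest that 3 against 3 arrays allow (two-sided). SCNT and IVP together, 6 arrays against the 3 of AI, differed by 0.78 (exact permutation p = 0.0238, the smallest possible, and 0.0952 adjusted over the 4 pooled balance tests), with all 6 above all 3. The SCNT values are lower bounds on SCNT 2 and SCNT 3, as is that of IVP 3, since ALDOC was below log2 4 there, and without the floor the SCNT-minus-AI difference was 1.04. All 9 conceptuses against FB differed by 0.52 (exact permutation p = 0.1, adjusted p = 0.2).

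For lactate dehydrogenase, LDHA minus LDHB with the brightest LDHA probe set was 0.42, -0.10 and 0.50 on the SCNT arrays, 0.92, 1.21 and 0.78 on the IVP arrays, 1.14, 1.32 and 0.71 on the AI arrays, and 1.05, 1.04 and 1.08 on the FB arrays. SCNT arrays were below all others, and IVP, AI and FB overlapped. The balance averaged 0.27 ± 0.32 in SCNT, 0.97 ± 0.22 in IVP, 1.05 ± 0.31 in AI and 1.06 ± 0.03 in FB (SD, n = 3 each). It was tilted toward LDHB in SCNT by -0.78 relative to AI and by -0.70 relative to IVP, each with an exact permutation p of 0.1, the smallest possible for 3 against 3. IVP minus AI was -0.08 (exact permutation p = 0.8). SCNT and IVP together minus AI was -0.43 (exact permutation p = 0.19, adjusted p = 0.254).

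The size of this tilt depended on the LDHA probe set for IVP but less so for SCNT. Relative to AI, the SCNT difference was -0.78 with the brightest LDHA probe set, -0.87 with the middle one and -0.87 with the dimmest. The IVP difference was -0.08, -0.71 and -0.56 in the same order, and SCNT minus IVP was -0.70, -0.16 and -0.31. All 3 balances subtract the same LDHB probe set, which was itself 0.65 higher in SCNT than in AI, so they are not independent. The LDHA probe sets alone differed by -0.13, -0.22 and -0.22 in SCNT minus AI, none of them called. The lower balance in SCNT than in AI is thus mostly the LDHB difference. The probe sets do not settle whether IVP stands with AI or with SCNT. Which transcripts or ends of LDHA each probe set reads was not tested.

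**Figure D3:**
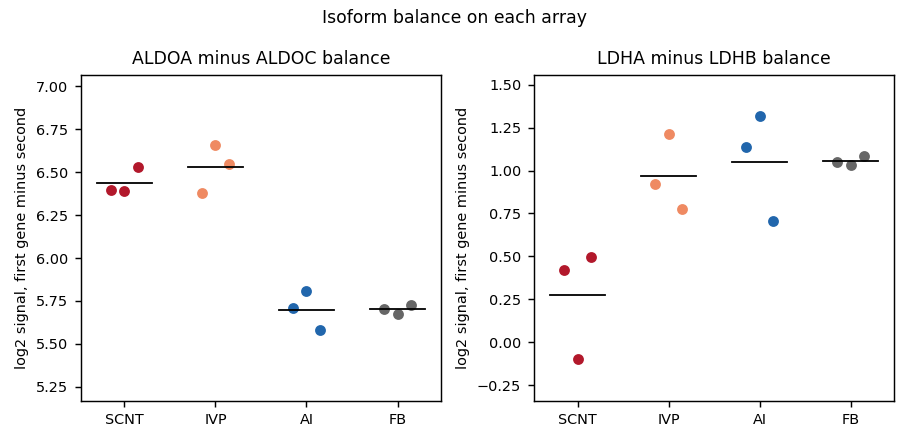
Isoform balance on each array, as log2 signal of the gene named first minus that of the other (vertical axis), for aldolase (left) and lactate dehydrogenase with the brightest LDHA probe set (right); points are arrays and lines are means of SCNT, IVP, AI and FB. The ALDOA minus ALDOC balance is 6.38 to 6.66 in SCNT and IVP and 5.58 to 5.81 in AI and FB, and the LDHA minus LDHB balance is -0.10 to 0.50 in SCNT and 0.71 to 1.32 elsewhere.

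Against the fibroblasts, 7 of 11 probe sets passed in each conceptus group, 2 higher and 5 lower in SCNT, 3 higher and 4 lower in IVP, and 3 higher and 4 lower in AI. Among all 8164 probe sets tested (limma), 79.9% passed for SCNT (45.0% higher and 34.8% lower), 78.7% for IVP (43.0% higher and 35.7% lower) and 77.2% for AI (41.6% higher and 35.6% lower). The 7 of 11 fall short of these shares by only a few probe sets, and 3 of the 11 read LDHA. The 8164 also include probe sets above log2 4 in FB alone or in conceptuses alone, whereas all 11 passed the filter among the conceptuses. Arrays did not overlap for 8, 9 and 9 of 11, against 84.7%, 83.4% and 81.3% of all. The differences were also smaller in size: the median absolute log2 difference of the 11 was 0.46 in SCNT, 0.45 in IVP and 0.44 in AI, beside 0.97, 0.93 and 0.90 over all probe sets. All comparisons with FB rest on the same FB arrays.

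The middle and dimmest LDHA probe sets were the farthest from FB. The middle one was at 5.73, 5.67 and 5.89 in SCNT, 5.85, 5.83 and 5.51 in IVP, 5.88, 6.32 and 5.76 in AI, and 7.65, 7.30 and 7.59 in FB. It was 3.36-fold lower than FB in SCNT, 3.44-fold in IVP and 2.88-fold in AI (limma, adjusted p = 6.73e-07, 5.82e-07 and 2.51e-06). The dimmest was at 4.04 to 4.48 in SCNT, 4.27 to 4.45 in IVP and 4.25 to 4.82 in AI, against 6.31 to 6.48 in FB, or 4.54-fold, 4.19-fold and 3.89-fold lower. The brightest LDHA probe set did not show this: it differed by -0.46 in SCNT (adjusted p = 0.0453), 0.04 in IVP (adjusted p = 0.855) and -0.33 in AI (adjusted p = 0.139) from FB, where it was at 11.48, 11.41 and 11.43. Its call in SCNT ended without SCNT 1, SCNT 2 or any single FB array (-0.48 to -0.32, adjusted p from 0.0779 to 0.175), and AI minus FB was called without AI 2 (-0.56, adjusted p = 0.00728). The LDHA minus LDHB balance relative to FB was accordingly -0.78 in SCNT, -0.09 in IVP and -0.00 in AI with the brightest probe set, but -2.07, -1.91 and -1.20 with the middle one and -2.51, -2.20 and -1.63 with the dimmest.

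PKM was 1.88-fold higher in SCNT, 1.83-fold in IVP and 1.48-fold in AI (limma, adjusted p = 1.48e-04, 2.18e-04 and 0.00465) than in FB, where it was at 5.45, 5.46 and 5.34, with no overlap. GPI was 1.61-fold lower in SCNT and 1.37-fold lower in IVP (adjusted p = 5.51e-04 and 0.00858) than in FB, where it was at 9.99, 10.10 and 9.97, and AI minus FB was -0.25 (adjusted p = 0.116). ALDOC was at least 1.55-fold lower in SCNT and 1.56-fold lower in IVP (adjusted p = 3.01e-04 and 0.00432) than in FB, where it was at 4.69, 4.74 and 4.55. Only the SCNT fold has the floor, and without it the differences were -0.93 in SCNT and -0.64 in IVP. All AI arrays were above the FB arrays in ALDOC, with AI minus FB at 0.34 (-0.04 to 0.71, adjusted p = 0.0911), called without AI 2 (0.46, adjusted p = 0.0370), with values below log2 4 set to 4, in the fit of the AI and FB arrays alone and with quantile normalization (adjusted p from 0.0174 to 0.0491).

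ALDOA was 0.26 higher on the log2 scale in IVP (limma, adjusted p = 0.0259) and 0.33 higher in AI (adjusted p = 0.00691) than in FB, where it was at 10.39, 10.42 and 10.27, and SCNT overlapped FB (0.10, adjusted p = 0.326). The IVP call ended without IVP 1, IVP 2 or any single FB array (0.21 to 0.29, adjusted p from 0.0598 to 0.144), and the AI call ended without FB 3 (0.29, adjusted p = 0.0569). TPI1 was 1.43-fold higher in IVP and 1.36-fold higher in AI (adjusted p = 0.00295 and 0.00838) than in FB, where it was at 9.61, 9.70 and 9.62, and SCNT minus FB was 0.20 (adjusted p = 0.165). ENO1 was 1.46-fold lower in AI (adjusted p = 0.00239) than in FB, where it was at 11.79, 11.79 and 11.64, while SCNT and IVP overlapped FB. LDHB was higher in SCNT (0.32, adjusted p = 0.0205) and lower in AI (-0.33, adjusted p = 0.0202) than in FB, where it was at 10.43, 10.37 and 10.35, between the IVP and the AI arrays. Both LDHB calls ended with any single FB array left out, that in SCNT also without SCNT 2 or SCNT 3 and that in AI also without AI 1 (adjusted p from 0.05 to 0.0962, differences of 0.28 to 0.34 and of -0.34 to -0.22). PGK1 was not called against FB, where it was at 10.31, 10.32 and 10.16, but AI minus FB was 0.70 (adjusted p = 9.4e-04) without AI 3, against 0.44 (adjusted p = 0.0534) with it.

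**Figure D4:**
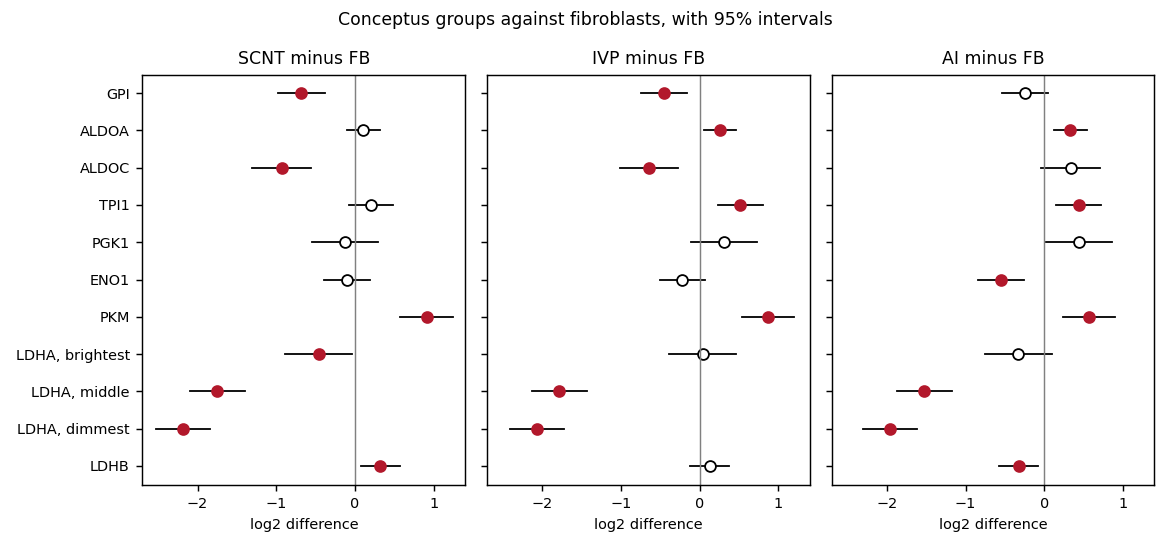
Log2 differences (horizontal axis) of the 11 glycolytic probe sets for SCNT minus FB, IVP minus FB and AI minus FB, with 95% intervals; filled points passed the test at an adjusted p under 0.05. The middle and dimmest LDHA probe sets lie at -2.18 to -1.52, while the brightest lies at -0.46 to 0.04, and PKM is above 0 in all 3 panels (0.57 to 0.91).

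The other genes of the pathway were taken from 7 lists with 83 genes, of which 67 are on the array and 38 were tested among conceptuses, each by its brightest tested probe set. In SCNT against AI 6 rose, 6 fell and 26 did not pass, and in IVP against AI 9 rose, 4 fell and 25 did not pass. Over all probe sets 27.6% were called in SCNT and 17.9% in IVP, so that the 12 of 38 in SCNT stand near the share of all. The calls in IVP, 9 up and 4 down, are a larger part of the 38 than 17.9%. The genes enter by their brightest tested probe set and the shares by all probe sets, so they are not like for like. No test of the lists was made. With no filter on low values 3 passed in SCNT (BSG, GPD1L and G6PC3) and 1 in IVP (BSG). Between SCNT and IVP 0 of the 38 passed, and 5 had an unadjusted p under 0.05 (limma). The median difference of the 38 was 0.11 in SCNT and 0.08 in IVP relative to AI, beside 0.08 and 0.02 over all probe sets.

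Of 5 tested transport genes, 1 rose and 2 fell in SCNT, and 3 rose and 1 fell in IVP, relative to AI. SLC16A3, a lactate exporter, was at 5.67, 6.08 and 6.09 in SCNT, 5.34, 5.98 and 5.79 in IVP, and 4.82, 5.27 and 4.35 in AI, 2.20-fold higher in SCNT and 1.85-fold higher in IVP than in AI (limma, adjusted p = 0.00675 and 0.0296). BSG, the chaperone that brings such transporters to the membrane, was 1.57-fold lower in SCNT and 1.59-fold lower in IVP (adjusted p = 0.00412 and 0.00539), and both calls held with any 1 array left out. SLC2A5, a fructose transporter, was 2.13-fold lower in SCNT (adjusted p = 0.0184), a call that ended without SCNT 3 or AI 1 (-1.02 and -1.04, adjusted p = 0.0593 and 0.0581). SLC2A1, the widespread glucose transporter, and SLC16A1, a lactate and pyruvate transporter, were 1.45-fold and 1.5-fold higher in IVP (adjusted p = 0.0486 and 0.0259), against differences of 0.11 and 0.21 in SCNT that did not pass. The IVP calls of SLC16A3 and SLC16A1 ended without IVP 2, IVP 3, AI 1 or AI 3 (0.66 to 0.89 and 0.48 to 0.58), and that of SLC2A1 without any single IVP array, AI 1 or AI 3 (0.35 to 0.58), with adjusted p from 0.0644 to 0.150. With median centring the IVP call of SLC2A1 ended too (0.56, limma adjusted p = 0.0529).

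At the hexokinase and phosphofructokinase steps, ADPGK, a glucokinase that uses ADP, rose in SCNT and IVP (0.56 and 0.54, limma adjusted p = 0.0325 and 0.0487), the IVP call ending with any 1 array left out (0.41 to 0.65, adjusted p from 0.0522 to 0.158) and the SCNT call without SCNT 1, SCNT 2, AI 2 or AI 3 (0.44 to 0.61, adjusted p from 0.0510 to 0.130). Both also ended with the replicate number as a block (adjusted p = 0.0588 in SCNT and 0.0839 in IVP). HK1, HKDC1, PFKL and PFKP did not pass in either group. In the lower pathway, the muscle enolase ENO3 was at 5.59, 4.44 and 4.10 in SCNT, 4.05, 5.25 and 5.46 in IVP, and 6.72, 6.26 and 7.15 in AI. All AI arrays were above the other conceptuses, the reverse of the order of ENO1, and ENO3 was 4.0-fold lower in SCNT and 3.46-fold lower in IVP (adjusted p = 0.00696 and 0.0171). The IVP call ended without IVP 1, AI 1 or AI 3 (-1.79 to -1.36, adjusted p from 0.0538 to 0.0641). GAPDH and PGAM1, the other 2 tested, did not pass.

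Of 8 genes of pyruvate oxidation, MPC1, a subunit of the mitochondrial pyruvate carrier, was 2.18-fold higher in SCNT and 2.48-fold higher in IVP than in AI (limma, adjusted p = 0.00519 and 0.00354). MPC2, its partner, did not pass (0.10 and 0.27, adjusted p = 0.603 and 0.184). DLD, a subunit of pyruvate dehydrogenase, rose in SCNT (0.57, adjusted p = 0.0322), a call that ended without SCNT 2, SCNT 3, AI 1 or AI 3 (0.48 to 0.55, adjusted p from 0.0809 to 0.110). The DLD call also ended with quantile normalization (0.50, limma adjusted p = 0.0506). Both glycerol phosphate dehydrogenase genes that passed moved in opposite directions: GPD1L, a cytosolic form, was 5.73-fold higher in SCNT and 4.34-fold higher in IVP (adjusted p = 3.65e-04 and 0.00156), and GPD2, the mitochondrial form, was at least 3.43-fold lower in SCNT and 2.99-fold lower in IVP (adjusted p = 0.00302 and 0.0226). GPD2 was at 3.43, 3.70 and 3.46 in SCNT, 3.84, 5.42 and 3.33 in IVP, and 5.81, 5.78 and 5.75 in AI, so that IVP 2 stood near the AI arrays. It thus reached the test through the AI arrays, where it was high. With no filter on low values both calls ended (limma, adjusted p = 0.0649 in SCNT and 0.213 in IVP). The IVP fold is without the floor, unlike that of SCNT. The IVP difference was -1.58, and -1.30 with values below log2 4 set to 4. The IVP difference of GPD2 was -2.19 without IVP 2, and the call ended without any 1 of the other 5 arrays (-1.60 to -1.14, adjusted p from 0.0589 to 0.0765). G6PC3, a widely expressed glucose 6-phosphatase, was at 3.89, 3.61 and 3.50 in SCNT and 4.32, 4.34 and 4.23 in AI, at least 1.23-fold lower in SCNT (limma, adjusted p = 0.00756), with IVP between them (3.89 to 4.13), and the call held with any 1 array left out. G6PC3 met the filter only with the AI arrays, as every SCNT array was below log2 4. Of 9 genes of the pentose phosphate pathway and glycogen, RPIA rose in both groups (at least 1.47-fold in SCNT and at least 1.45-fold in IVP), and in IVP so did the glycogen branching enzyme GBE1 (2.33-fold, adjusted p = 0.00422) and the brain-type glycogen phosphorylase PYGB (at least 1.48-fold, adjusted p = 0.0236). The PYGB call ended without IVP 1, AI 2 or AI 3 (0.57 to 0.71, adjusted p from 0.0710 to 0.0793). Of 4 known regulators, EPAS1, a hypoxia-inducible factor subunit, fell in SCNT and IVP (1.59-fold and 1.60-fold lower, adjusted p = 0.00849 and 0.0116), while HIF1A, EGLN1 and MYC did not pass.

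**Figure D5:**
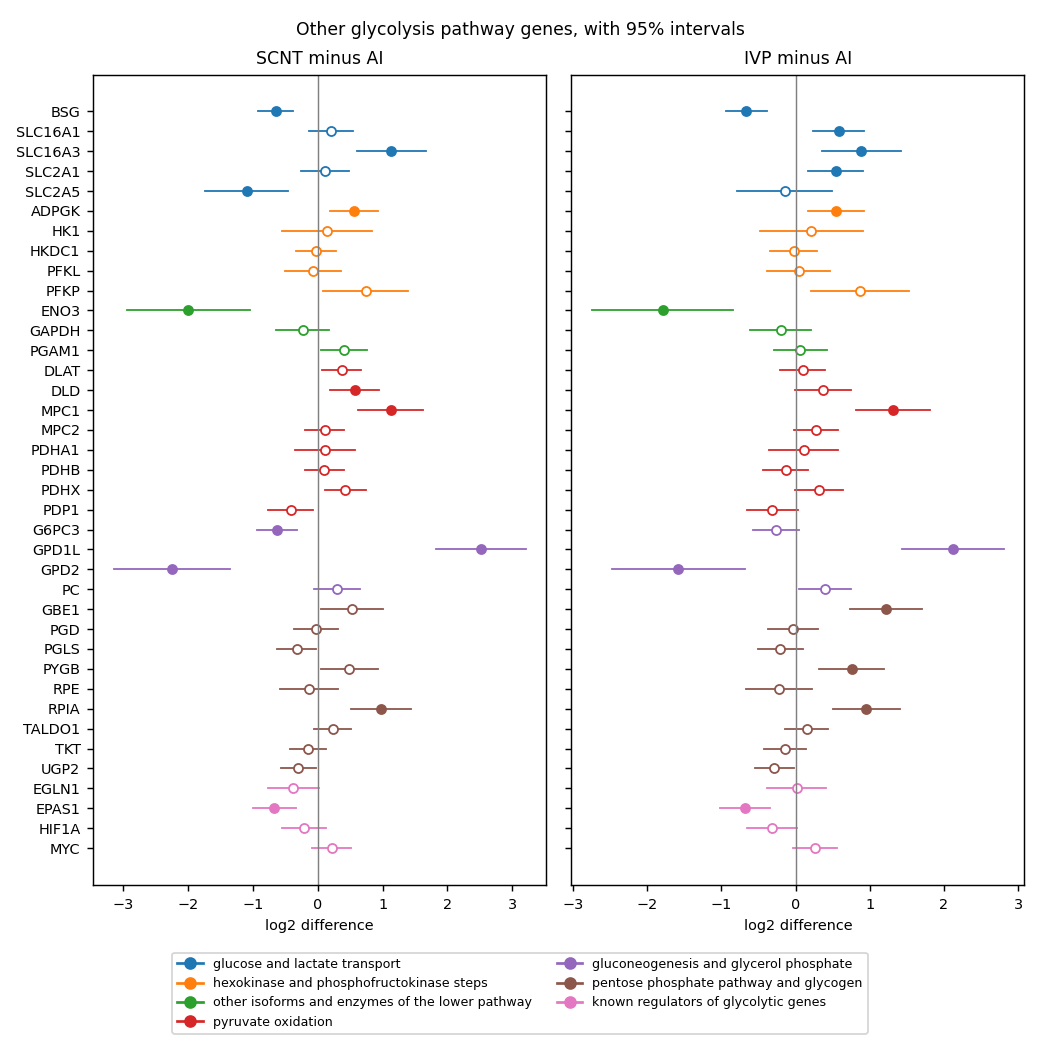
Log2 differences (horizontal axis) of the 38 tested pathway genes outside the 9 enzymes, for SCNT minus AI and IVP minus AI, with 95% intervals and a colour for each list; filled points passed the test at an adjusted p under 0.05. SCNT minus AI has 6 filled points on each side of 0, and IVP minus AI has 9 above and 4 below, with GPD1L (2.52 and 2.12) highest and ENO3 and GPD2 (-2.25 to -1.58) lowest.

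Against FB, 45 pathway genes were tested, of which 20 were higher and 19 lower in SCNT, 21 and 18 in IVP, and 20 and 19 in AI. These 39 of 45 in each group stand beside 79.9%, 78.7% and 77.2% called over all probe sets. Only 38 of the 45 passed the filter on low values among the conceptuses. The others (FBP1, PCK2, PDK3, PFKFB3, PFKM, PGM1 and PYGL) reached the test through high FB values and were lower in each conceptus group. Their direction was set by the filter, so the counts of lower genes and the 39 of 45 lean on it. All 5 tested transport genes were higher in each conceptus group: SLC2A1 was at 8.83, 8.78 and 8.89 in SCNT, 9.23, 9.19 and 9.36 in IVP and 8.79, 9.03 and 8.34 in AI, against 3.71, 3.67 and 3.50 in FB, or at least 28.5-fold, 38.3-fold and 26.4-fold higher. SLC16A1 was 9.04-fold, 11.7-fold and 7.83-fold higher in SCNT, IVP and AI. At the entry steps, where 2 of 7 genes were higher and 5 lower in each conceptus group, the hexokinase-like gene HKDC1 was at least 21.1-fold, 21.2-fold and 21.5-fold higher, while HK1 was 2.06-fold, 1.96-fold and 2.27-fold lower, and the liver-type phosphofructokinase PFKL was 4.61-fold, 4.98-fold and 4.84-fold higher (limma, adjusted p of 0.0121 or less for each). The other 4 were also lower in SCNT, IVP and AI: ADPGK by -0.56, -0.57 and -1.12, the muscle phosphofructokinase PFKM by -1.04, -0.63 and -0.75, the platelet form PFKP by -0.81, -0.68 and -1.55, and PFKFB3, which makes fructose 2,6-bisphosphate, by -1.31, -2.15 and -2.19 (adjusted p of 0.0436 or less for each). PFKM and PFKFB3 did not pass the filter of log2 4 on at least 3 arrays among the conceptuses. Their differences from FB, given without the floor, rest on low conceptus values, and their sizes cannot be compared between the conceptus groups. The PFKM call in IVP ended without IVP 1, IVP 2 or FB 2, the PFKP call in IVP without IVP 2, FB 1 or FB 2, and the PFKP call in SCNT without SCNT 1 or FB 2 (highest adjusted p of 0.108, 0.170 and 0.0914). HIF1A was 3.09-fold, 3.31-fold and 2.66-fold lower than in FB. Among the 9 enzymes the farthest from FB was the dimmest LDHA probe set, at the folds given above.

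Genes whose log2 signals followed the isoforms most closely over the 12 arrays, as a description of 12 arrays in 4 groups, were TST, RPS12 and CDK2AP2 for ALDOA (Pearson's r of 0.923, 0.912 and 0.904), and SCPEP1, ARPC1B and DLC1 for ALDOC (0.935, 0.929 and 0.920). For the brightest LDHA probe set they were SLC35E3, PLOD2 and TMEM39A (0.916, 0.912 and 0.824), and for LDHB CALD1, PLA2G12A and RCN2 (0.932, 0.931 and 0.921). Over the 9 conceptus arrays they were SPTLC2, KRT19 and SLC4A2 for ALDOA (0.937, 0.909 and 0.898), EFNA1, GABARAP and ARHGEF2 for ALDOC (0.972, 0.969 and 0.958), PLOD2, PIGN and SLC35E3 for LDHA (0.924, 0.903 and 0.903), and RAN, PAG11 and NDUFS1 for LDHB (0.976, 0.975 and 0.966). PAG11, a pregnancy-associated glycoprotein of trophoblast, was at 13.2 ± 0.14 in SCNT, 13.0 ± 0.14 in IVP and 11.9 ± 0.38 in AI (SD, n = 3 each), with SCNT and IVP overlapping. ARHGEF2 was at 3.46 ± 0.44 in SCNT, 3.68 ± 0.19 in IVP and 5.27 ± 0.26 in AI. All its SCNT arrays (2.96 to 3.78) and IVP arrays (3.48 to 3.87) were below log2 4. It thus passed the filter among conceptuses only through AI, and SCNT and IVP cannot be ordered. TST too was above log2 4 on the AI arrays alone. All these genes were chosen by r on the same arrays, so a like order of the groups follows from the choice. Such values share the arrays and the group differences.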

How the data were processed

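Amplified, biotin-labelled RNA of 9 day-16 conceptus and 3 fibroblast samples was read on Affymetrix bovine arrays, per the labels' protocols. The authors deposited log2 signals of 24128 probe sets. GCRMA and limma are named per the submitters' processing notes. The sources used here do not give versions or say whether the 12 arrays were normalized jointly. Values ran from 2.42 to 13.66, with 36.9% within 0.01 of the lowest, so low levels cannot be told apart. The 112 control probe sets were left out of the fits. The array annotation gave 1 symbol to 13292 probe sets, several to 86 and none to 10638. No genome was used, so no positions are given.

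The deposited values were fitted with limma 3.58.1 (R 4.3.3, statmod 1.5.0), 1 coefficient per group, over 9 conceptus arrays (6892 probe sets, 6 residual degrees of freedom) or all 12 arrays for FB (8164, 8 degrees of freedom). Tests were two-sided and adjusted by Benjamini and Hochberg over all probe sets of a comparison, with calls at an adjusted p below 0.05. Intervals are 95%, and the median standard errors of 0.16 and 0.14, which depend on the spread and the number of arrays, give the precision. Where a group's mean was below log2 4, its arrays below 4 were set to 4, and the fold is a lower bound. Balances were compared with exact permutation tests (SciPy 1.17.1, Python 3.11.15). The limma and permutation steps were tested on simulated data.

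All 11 probe sets were reported whether called or not, along with called genes of 7 pathway lists and the 3 genes most like each of ALDOA, ALDOC, LDHA and LDHB. The members and lists were chosen with earlier results of these data known. Alternatives were other filters, normalizations, floors, variance models, arrays in the fit, probe set rules for the balances, a replicate block and each array left out in turn.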

Additional observations from a re-analysis of the deposited data

How the results depend on the processing

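No called result reversed under the settings run, but with the floor the called GPD2 difference of SCNT minus FB (1.01) was 0, as all its values are then at the floor. Over the 11 probe sets, 846 of the alternative values kept their direction and side of the threshold, 31 lost the call, 21 gained it and 17 changed sign, all of uncalled differences of 0.13 or less in size. With no filter on low values, where 24016 probe sets are tested, 0 of 11 passed in IVP against AI, LDHB and ALDOC both losing the call. A filter at log2 5 left 1, since ALDOC is removed. In SCNT against AI, 4 of 11 passed with limma's trend and robust options and 5 in the fit of all 12 arrays, ENO1, GPI and PGK1 being those that gained it. With no filter, 3 pathway genes passed in SCNT and 1 in IVP against AI, beside 12 and 13. Replicate numbers were not used to pair the arrays. Deviations of same-numbered arrays correlated at -0.15 to 0.15 and those of differently numbered arrays at -0.14 to 0.18. This shows no pairing, but 3 arrays per group cannot exclude it. With the number as a replicate block 1 of 11 passed in IVP against AI, LDHB no longer doing so (limma, adjusted p = 0.0634). Other calls that ended with the block were ADPGK (adjusted p = 0.0588) and DLD (0.0558) in SCNT and ADPGK (0.0839) and SLC2A1 (0.0766) in IVP against AI, and PGLS in SCNT (0.0550) and PFKP in IVP (0.0639) against FB. The call of the brightest LDHA probe set in SCNT against FB ended with no filter, with the floor and with the block (adjusted p from 0.0531 to 0.134).

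With any 1 array left out, the 11 probe sets gave 2 to 3 calls in SCNT and 1 to 2 in IVP against AI, 0 to 0 in SCNT against IVP, and 5 to 6, 6 to 7 and 5 to 9 in SCNT, IVP and AI against FB, and the pathway genes 10 to 13, 6 to 11, 0 to 0, 31 to 37, 32 to 38 and 35 to 39 in the same order. Without the floor, the ALDOA minus ALDOC balance differed by 1.04 in SCNT minus AI, 1.04 in SCNT minus FB and 0.14 in SCNT minus IVP, the last with its sign turned. Leaving out 1 array gave 0.68 to 0.79 in SCNT and 0.76 to 0.90 in IVP minus AI, 0.72 to 0.84 for both together, -0.16 to -0.03 in SCNT minus IVP, 0.69 to 0.76, 0.76 to 0.90 and -0.06 to 0.06 in SCNT, IVP and AI minus FB, and 0.47 to 0.60 for all conceptuses minus FB. With the mean of a gene's probe sets, which for ALDOA and ALDOC changes no value, the pooled difference of 0.78 had an adjusted exact p of 0.0476, as the adjustment runs over tests that include LDHA. For LDHA minus LDHB that mean gave -0.45 in IVP minus AI, -0.39 in SCNT minus IVP, -1.79, -1.40 and -0.95 in SCNT, IVP and AI minus FB, and -1.38 for all conceptuses minus FB (adjusted exact p = 0.0364). Leaving out 1 array gave -0.95 to -0.59 in SCNT and -0.26 to 0.05 in IVP minus AI, -0.60 to -0.29 for both together, -0.81 to -0.51 in SCNT minus IVP, -0.90 to -0.60, -0.21 to 0.01 and -0.14 to 0.17 in SCNT, IVP and AI minus FB, and -0.36 to -0.18 for all conceptuses minus FB. Where no cause is given, the cause was not tested. The 3 arrays per group limit the precision, and ALDOC in SCNT and IVP lies near the lowest measurable signal.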

Other observations

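The enolase genes differed in their order over the groups. ENO1 was lower in AI than in FB while ENO3 averaged 4.71 ± 0.78 in SCNT, 4.92 ± 0.76 in IVP, 6.71 ± 0.44 in AI and 5.80 ± 0.03 in FB (SD, n = 3 each), with AI highest. Of the pyruvate dehydrogenase genes, PDHA1, PDHB, PDHX, DLAT and DLD were higher in each conceptus group than in FB by 0.89 to 1.67 on the log2 scale (limma, adjusted p of 2.28e-04 or less), while both carrier subunits were lower, MPC1 by -0.96 in SCNT, -0.77 in IVP and -2.09 in AI and MPC2 by -1.03, -0.86 and -1.13. The liver-type glycogen phosphorylase PYGL, which reached the test through the FB arrays alone, was below log2 4 in the conceptuses and at least 4.77-fold lower there than in FB. The 3′ minus 5′ gap of the GAPDH control probe sets was 0.28 to 0.45 in SCNT, 0.35 to 0.89 in IVP, 0.21 to 0.38 in AI and 0.01 to 0.06 in FB, and the mean spike-in signal was 7.42 to 7.60 in SCNT, 7.75 to 8.27 in IVP, 7.35 to 8.30 in AI and 6.93 to 7.19 in FB. The part of either in the glycolytic differences was not tested.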
